A study of Drosophila melanogaster with 2 samples.

Results

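Divergent promoters are stretches of DNA between 2 neighbouring genes that are transcribed away from each other. The regions described here are 706 Oli-eGFP peaks, 10.9% of the list filtered for agreement between replicates (exact binomial 95% interval 10.1 to 11.7), whose summit lay within 500 bp of annotated transcript starts of 2 different protein-coding genes, a gene on the minus strand starting to the left of a gene on the plus strand. The rule uses positions only, not peak heights. Equally long lists of the highest peaks of each replicate alone held 733 in replicate 1 and 696 in replicate 2 (mean 11.0% ± 0.40, SD, n = 2 replicates). The other 5790 peaks were 1399 near the starts of a single coding gene, 41 near several coding genes in another arrangement, 183 near non-coding starts only, and 4167 away from any start.

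The peaks come from chromatin immunoprecipitation and sequencing (ChIP-seq) of Oli in Drosophila melanogaster. The samples form 1 group, which consists of 2 biological replicates. Each is whole embryos, male and female together, collected at 6 to 18 hours by the source label (the separate age label is not readable as an embryo's age) from transgenic flies whose Oli ends in enhanced green fluorescent protein (eGFP), fused at the C terminus. Sonicated chromatin fragments of 200 to 800 bp were precipitated with an antibody against GFP. There is no second condition, so shares are given with counting intervals over peaks or gene pairs and with both replicates' values, and no significance test was made. The peak signal is the authors' own value and ranks peaks within a list only. Read depth is unknown, and no marker of cell type can be checked in peak lists of whole embryos.

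In the compact fly genome many housekeeping genes stand back to back and share a promoter region. Such promoters often carry the DNA replication-related element (DRE), bound by the factor DREF, or Motif 1, bound by the zinc finger protein M1BP, rather than a TATA box. Oli is a basic helix-loop-helix (bHLH) protein of the Olig family. Proteins of this class bind E-boxes, whose letters are CANNTG.

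The sequences below show what lay between the 2 starts in high-signal members with no annotated exon in the gap. They are the plus strand of release 6 of the genome (dm6), from RefSeq, 5′ to 3′. Capitals mark E-boxes (CANNTG), DREs (TATCGATA) and the Motif 1 core (GGTCACAC), searched on both strands. The minus-strand gene of each pair begins just before the first base and the plus-strand gene just after the last.

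Art3/mRpS10, chr3R:15229409-15229664: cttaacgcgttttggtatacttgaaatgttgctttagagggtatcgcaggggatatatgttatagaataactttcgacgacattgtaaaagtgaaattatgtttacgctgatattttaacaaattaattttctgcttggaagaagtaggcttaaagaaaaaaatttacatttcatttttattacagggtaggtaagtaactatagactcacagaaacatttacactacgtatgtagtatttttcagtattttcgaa
Chro/Ssl1, chr3L:22878985-22879088: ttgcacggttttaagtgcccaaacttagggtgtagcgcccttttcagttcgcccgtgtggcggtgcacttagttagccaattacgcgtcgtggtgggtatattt
Tcs5/CHMP2B, chr3L:5139396-5139618: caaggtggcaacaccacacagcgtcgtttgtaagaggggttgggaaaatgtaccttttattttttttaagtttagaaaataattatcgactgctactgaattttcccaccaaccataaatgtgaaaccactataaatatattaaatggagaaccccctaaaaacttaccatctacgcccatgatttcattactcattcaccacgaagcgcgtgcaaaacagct
CG13390/CG17294, chr2L:8376798-8377034: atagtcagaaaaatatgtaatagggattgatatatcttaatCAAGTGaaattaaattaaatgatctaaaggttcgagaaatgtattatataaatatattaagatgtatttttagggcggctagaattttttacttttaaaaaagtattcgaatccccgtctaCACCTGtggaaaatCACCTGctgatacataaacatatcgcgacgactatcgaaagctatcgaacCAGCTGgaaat
Lon/PIG-F, chr3L:19612200-19612454: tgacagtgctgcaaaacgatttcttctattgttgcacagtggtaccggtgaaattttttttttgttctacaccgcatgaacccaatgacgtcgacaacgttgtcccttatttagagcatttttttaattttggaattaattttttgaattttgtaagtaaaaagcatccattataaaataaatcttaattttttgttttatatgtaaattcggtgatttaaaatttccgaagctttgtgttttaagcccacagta
fws/Lamtor3, chr2L:17481030-17481230: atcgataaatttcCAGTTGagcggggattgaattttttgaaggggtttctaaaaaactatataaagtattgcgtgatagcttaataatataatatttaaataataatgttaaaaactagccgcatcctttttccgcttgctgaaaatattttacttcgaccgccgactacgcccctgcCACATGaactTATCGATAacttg

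The summit lay at base 119 of the 256 bases between Art3 and mRpS10, at base 106 of the 223 between Tcs5 and CHMP2B, at base 93 of the 237 between CG13390 and CG17294, at base 143 of the 255 between Lon and PIG-F and at base 106 of the 201 between fws and Lamtor3. Between Chro and Ssl1, where the starts are 105 bp apart, it lay outside the stretch shown, 89 bp inside Chro. E-boxes were absent from the sequences at Art3, Chro, Tcs5 and Lon. The sequence at CG13390 held 4, and that at fws held 2 together with 1 DRE beside the start of Lamtor3. The next 3 windows reach 50 bp to either side of a summit, shown because each holds 1 of the named motifs, clear of exons. These are the DRE at RpS25 (signal 626.9), the Motif 1 core at PIG-C (213.8) and the E-box CAGCTG at ND-51 (426.5). In these windows capitals mark only the motif just named. The window at PIG-C also holds 1 E-box, CACTTG, which is left in lower case.

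RpS25/CG4820, chr3R:11216290-11216390: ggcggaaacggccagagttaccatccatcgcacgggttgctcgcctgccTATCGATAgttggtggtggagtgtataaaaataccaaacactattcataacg
PIG-C/CG12016, chr3L:3319310-3319410: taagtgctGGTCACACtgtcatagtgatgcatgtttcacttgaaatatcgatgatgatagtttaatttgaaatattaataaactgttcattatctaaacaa
ND-51/CG13994, chr2L:6062777-6062877: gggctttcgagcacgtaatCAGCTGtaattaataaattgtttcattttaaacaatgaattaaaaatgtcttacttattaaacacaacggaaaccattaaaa

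The highest member of all, at rank 7 of the whole list, lay between Art3, which encodes an arginine methyltransferase, and mRpS10, a protein of the small mitochondrial ribosomal subunit. Its signal was 2077.5 in replicate 1 and 2704.9 in replicate 2, and 4772.9 in the pooled replicates. The peak at Chro, which encodes a chromatin and spindle protein, and Ssl1, a subunit of the general transcription factor TFIIH, had 2314.4, 2218.6 and 4516.3. The peak between mRpS23, another mitochondrial ribosomal protein gene, and CenG1A had 1720.7, 2038.7 and 3741.2. In replicates 1 and 2 these peaks ranked 14 and 4 at Art3, 11 and 12 at Chro, and 27 and 15 at mRpS23. The other pairs among the 15 highest were CG5611/Mtl (a Rac-like GTPase), Fbw5/CG9147, Tcs5/CHMP2B (a subunit of the membrane-cutting ESCRT-III complex), Pdrg1/Pal1 (an enzyme of neuropeptide amidation), Pex11ab (peroxisome division)/CG8320, CG13390/CG17294, Lon (a mitochondrial protease)/PIG-F (GPI anchor synthesis), CG5757/CG5098, eIF4EHP (a cap-binding repressor of translation)/CG18428, tank/CG12194, mRpL23/CG9004 and Hrd3 (degradation of endoplasmic reticulum proteins)/PTPMT1 (a mitochondrial phosphatase). Their pooled signals ran down to 2557.8, at Hrd3/PTPMT1, where replicate 1 had 1706.1 (rank 29) and replicate 2 had 863.5 (rank 161).

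As a class the members were not higher than other promoter peaks. Their median signal was 359.1 (range 155.3 to 4772.9), against 352.6 for peaks near a single coding gene, 277.0 for peaks away from starts and 295.2 for the whole list. Their median rank, as a percent of the list, was 39.7 in the pooled data, 42.1 in replicate 1 and 40.2 in replicate 2, against 40.5, 41.1 and 44.2 for peaks near a single coding gene. The order of the 2 promoter classes differed between the replicates. Members made up 15.8% (12.7 to 19.3) of the strongest 500 peaks and 9.01% (7.92 to 10.2) of the ranks beyond 4000. Of all peaks at coding promoters they were 28.4% in the first of these ranges and 33.1% in the second.

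Nearly every member had a counterpart in both replicate lists. By an overlap of at least 1 bp, 694 of 706 (98.3%, 97.0 to 99.1) did, against a background of 99.5% for all peaks of the list, which was itself drawn from the pooled replicates with a threshold on their agreement by the irreproducible discovery rate (IDR). With each replicate list shortened to the length of the IDR list, 601 (85.1%, 82.3 to 87.7) had a counterpart in both, against 82.3% of all peaks. The 12 without one in both full lists included the peak at U2af50, a splicing factor gene, and PIG-Q. Its signal was 614.6 in replicate 2 and 1229.0 in the pooled data, with no overlapping peak in replicate 1. Signal tracks were not analysed, so the missing peak does not show that replicate 1 had no signal there. The summits of the replicates stood a median of 27 bp apart at members and 26 bp apart at all peaks. A distance below that shift does not tell a summit upstream of a start from one at it or inside the gene. Of the members, 498 (70.5%) had the same deposited width of 416 bp, as did 72.0% of all peaks.

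A peak was more common at divergent pairs of coding genes than at coding genes outside such pairs. The annotation held 2667 pairs with starts at most 1000 bp apart, which take in 5052 (36.2%) of 13945 coding genes. A member lay at 733 of the pairs, or 27.5% (25.8 to 29.2), with 27.0% in replicate 1 and 27.8% in replicate 2. Counted by gene, 1391 of the 5052 had a member, again 27.5%. A summit of any class stood within 500 bp of a start in 31.9% (30.6 to 33.2) of genes in divergent pairs, against 11.4% (10.8 to 12.1) of other coding genes and 18.8% of all coding genes. Replicate 1 gave 31.2% and 10.9%, and replicate 2 gave 32.6% and 11.9%, so the gap between the 2 kinds of gene was many times the difference between replicates. A summit in a divergent promoter counts for both genes, which raises the share of the paired genes by construction.

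The share of pairs with a peak changed with the distance between their starts. It was 21.0% at 1 to 50 bp, 21.0% at 51 to 100 bp, 22.1% above 100 and up to 150 bp and 22.1% at 151 to 200 bp. It was higher from 201 to 400 bp, at 38.4% (32.3 to 44.9) for 201 to 250 bp, 38.0% for 251 to 300 bp and 44.3% (39.3 to 49.3) for 301 to 400 bp. Beyond that it was 33.3% at 401 to 500 bp, 22.4% at 501 to 700 bp and 3.23% at 701 to 1000 bp. Over the broader class of 201 to 400 bp, 384 of 942 pairs (40.8%, 37.6 to 44.0) had a peak, against 169 of 786 (21.5%, 18.7 to 24.5) at 1 to 200 bp. In replicate 1 these shares were 41.0% and 20.1%, and in replicate 2 they were 40.1% and 24.9%. With only the outermost start of each gene they were 41.1% and 20.6%. The stretch in which a summit can lie within 500 bp of both starts shortens as the starts move apart. Part of the fall at long distances is thus built into the rule, and how large a part was not tested. From 201 to 500 bp the share was higher than for closer starts, although this stretch is shorter there. At 501 to 700 bp (22.4%) it was close to that of the closer starts, and at 701 to 1000 bp (3.23%) it was lower.

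**Figure D1:**
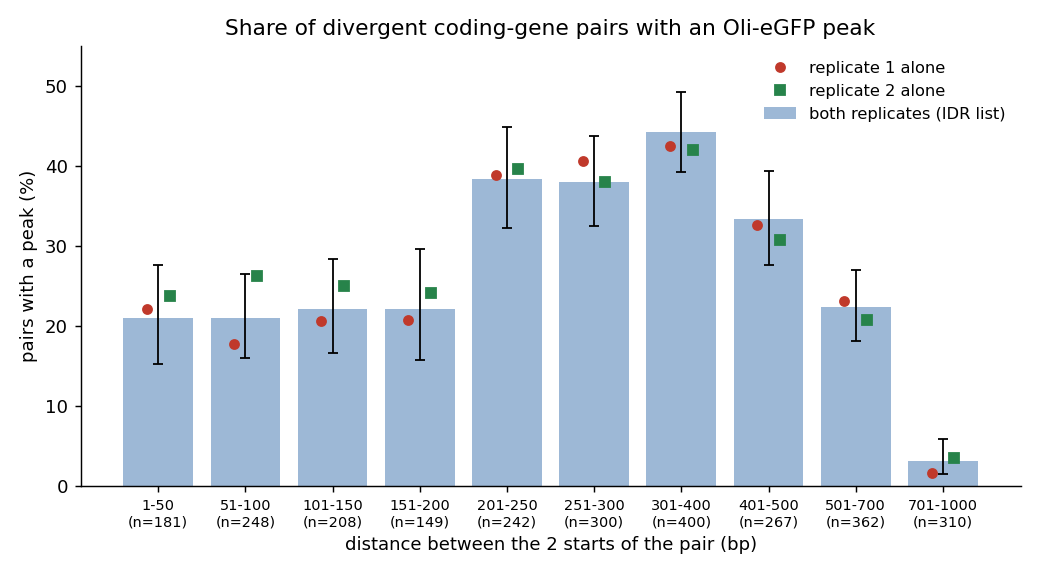
Share of divergent coding-gene pairs with an Oli-eGFP peak (percent, y axis) by the distance between their 2 starts (bp, x axis, number of pairs in brackets). Bars are the list from both replicates with exact binomial 95% intervals, circles replicate 1 and squares replicate 2; shares lie between 21.0% and 22.1% up to 200 bp and between 38.0% and 44.3% from 201 to 400 bp.

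Members themselves had starts a median of 310 bp apart, with a middle range of 236 to 421.75 bp. The median over all 2667 divergent pairs, with or without a peak, was close to this, at 301 bp. Among members the 3 closest pairs were dpa/didum at 2 bp, and CG9588/Lkb1 and SerRS/CG17260 at 8 bp each. The first joins the replicative helicase subunit gene dpa to a class V myosin gene, Lkb1 encodes a polarity and energy-sensing kinase, and SerRS a seryl-tRNA synthetase. Signals at these 3 were 424.6, 195.7 and 903.7. The 3 most distant pairs were mRNA-cap/CG32599 at 864 bp, CG16956/CG42784 at 856 bp and Cul5/Bicra at 853 bp, with signals of 173.7, 165.1 and 520.7. Cul5 is a ubiquitin ligase scaffold and mRNA-cap the capping enzyme. By distance class, the median signal had no steady course. It was 611.4 at 1 to 50 bp (24 members), 286.1 at 151 to 200 bp, 438.9 at 201 to 250 bp, 292.0 at 401 to 500 bp and 204.9 at 701 to 1000 bp (10 members).

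The 500 bp limit cut through a sparse range. There were 23 members more than 450 bp from the farther start, with signals of 156.9 to 2669.2 and a median of 229.1. A further 17 peaks would have joined at 501 to 550 bp, with signals of 155.5 to 1583 and a median of 365.3. The member at the limit itself lay 37 bp from CG42613 and 500 bp from Mpc1, which encodes a subunit of the mitochondrial pyruvate carrier.

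Most summits sat between the 2 starts. In 598 of 706 members (84.7%, 81.8 to 87.3) the summit lay between the 2 starts, and in replicates 1 and 2 this was so in 85.4% and 83.9%. The share was 12.7% for starts up to 100 bp apart, 36.8% for starts up to 200 bp apart and 93.6% for 201 to 400 bp, where 352 of 376 did. The rule itself places every summit between starts that are more than 500 bp apart and narrows the room outside as starts move apart, so part of this rise is built in. Where starts were 1 to 50 bp apart, the median summit stood 76.5 bp downstream of the nearer start, inside that gene, and 114.5 bp upstream of the farther one. At 201 to 250 bp it stood 90 bp upstream of the nearer start and 143 bp upstream of the farther one. At 301 to 400 bp these distances were 120 and 226 bp. Of the summits between the starts, 233 (39.0%, 35.0 to 43.0) were in the middle 20% of the stretch. The nearer gene was on the minus strand in 331 members, on the plus strand in 374, and in 1 the distances were equal.

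**Figure D2:**
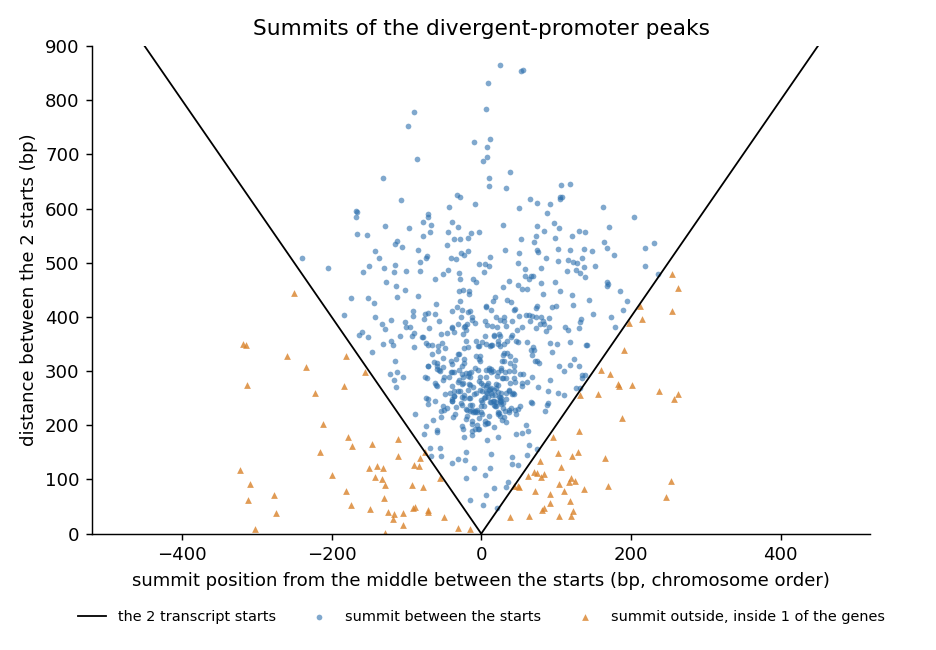
Position of each of the 706 summits relative to the middle between the 2 starts (bp, x axis) against the distance between the starts (bp, y axis). The lines mark the starts; 598 summits lie between them, and the 108 triangles outside belong mostly to pairs with close starts, with a median distance of 109.5 bp.

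The summit was upstream of the nearer start by a median of 103 bp, with a middle range of 44.25 to 144 bp. For peaks near a single coding gene the median was 189 bp. Taking the nearer of 2 starts shortens this distance by construction, so the 2 medians are not on an equal footing. Both starts were the outermost of their genes in 607 members (86.0%), and 14 members had a non-coding start within 500 bp as well.

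Most members belonged to 1 pair, and most pairs had 1 member. Only 36 members counted for more than 1 pair. The extreme was a summit on 3R (21365417, signal 1367.4) that counted for 21 pairs among the annotated pre-mod(mdg4) genes, which supply alternative 3′ ends of mod(mdg4) transcripts by trans-splicing. Without these genes 27.1% of pairs had a peak. Of the 733 pairs with a peak, 35 had 2, and 0 had 3 or more. The highest summed signals were at Elp6/Dic1 (1926.6 and 542.9, summits 2556 bp apart at separate starts), Snx21/aph-1 (1170.1 and 696.1, 203 bp apart) and phr6-4/CG2608 (1216.3 and 428.8, 210 bp apart). The gene aph-1 encodes a subunit of gamma-secretase, phr6-4 a photolyase and Dic1 a mitochondrial dicarboxylate carrier. Over the 35 pairs the spacing had a median of 205 bp and a minimum of 199 bp. Whether so close a spacing reflects separate sites or the peak caller was not tested.

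Pairs on the chromosome arms differed in how often they had a peak. The share was 32.4% on 3R (28.9 to 36.0, or 31.0% without the mod(mdg4) genes), 31.3% on 3L, 27.5% on 2L, 22.8% on X (18.8 to 27.2) and 21.7% on 2R (18.3 to 25.4). Replicate 1 gave 32.1%, 31.5%, 26.9%, 21.1% and 21.4% in the same order of arms, and replicate 2 gave 33.7%, 31.5%, 28.7%, 19.9% and 22.7%. Both arms of chromosome 3 were thus above X and 2R in each replicate, and the order of X and 2R was not the same in all lists. Chromosome 4 had 0 of 11 pairs with a peak (exact binomial 95% interval up to 28.5%).

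Summits of members stood in a dip of GC content, as did those of the other peaks. Within 50 bp of the summit, the mean was 29.5% (SD 8.95 over 706 peaks), with 30.3% in replicate 1 and 29.8% in replicate 2. Peaks near a single coding gene had 32.0% in the pooled data, 32.6% in replicate 1 and 32.4% in replicate 2. Peaks away from any start had 30.7%. The dip was not found at every member, since 51 of the 706 had at least 45% GC at the summit. The flanks differed more. At 500 bp to either side members had 50.01% and 50.2%, against 43.3% and 43.3% for peaks near a single coding gene. Replicates 1 and 2 gave 49.8% and 49.9% on the left for members, against 43.6% and 43.4%. In divergent pairs both flanks are gene bodies. At 500 bp to either side of the middle between the starts, pairs with a peak had 50.1% and 50.1% GC. Pairs without a peak had 47.8% and 48.4% there, so high flanks were present in both. At the middle between the starts, pairs with a peak had 30.0% GC and pairs without had 34.8%, so a dip was present in both. At matched distances of 201 to 400 bp between starts, the middle had 25.7% GC (SD 6.57, 384 pairs) in pairs with a peak and 29.4% (SD 8.81, 558 pairs) in pairs without, so the ranges overlapped widely. At 1 to 200 bp the 2 means were 41.3% and 42.3%.

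**Figure D3:**
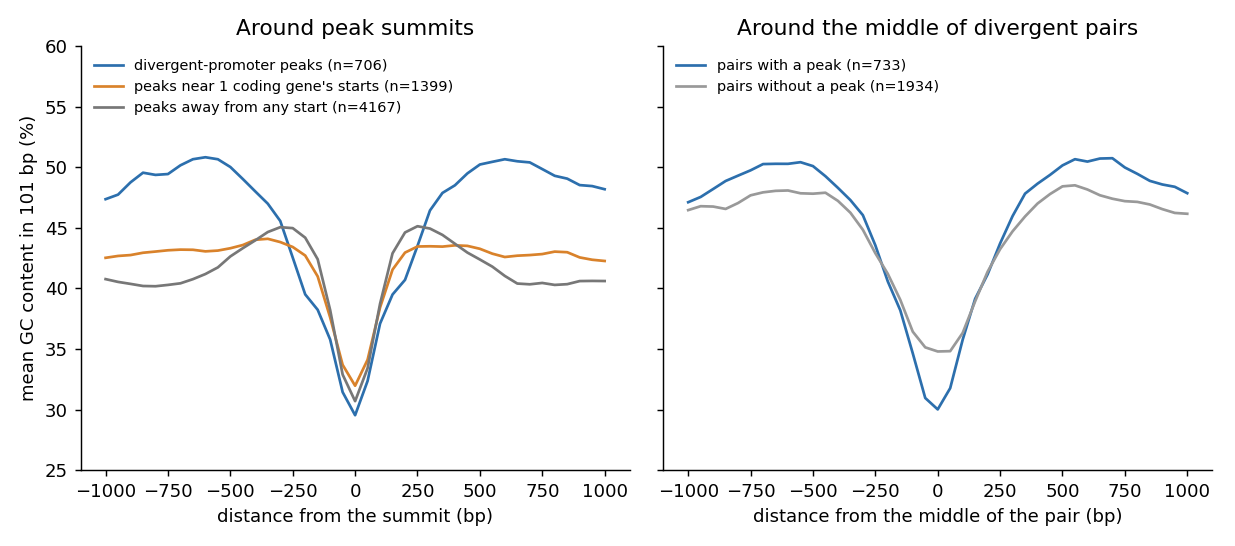
Mean GC content within 50 bp of each position (percent, y axis) by distance (bp, x axis) from peak summits, left, and from the middle between the starts of divergent pairs, right. Members dip to 29.5% at the summit with flanks near 50%. Pairs with a peak dip to 30.0% at the middle, against 34.8% in pairs without, which have 47.8% and 48.4% at 500 bp to either side.

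E-boxes were less frequent at the summits of members than at those of other promoter peaks. An E-box (CANNTG, its own reverse complement) lay within 50 bp of the summit in 189 members (26.8%, 23.5 to 30.2), against 34.0% (31.5 to 36.6) of peaks near a single coding gene and 32.3% of all peaks. Replicate 1 gave 29.1% against 33.1%, and replicate 2 gave 28.6% against 32.1%. The difference, members minus peaks near a single coding gene, was -7.25 percentage points in the pooled list, -4.09 in replicate 1 and -3.53 in replicate 2, and the intervals of the 2 classes overlapped within each replicate. In windows of the same length centred 100 bp upstream of all coding genes the share was 36.7%. GC content was lower at the members too, and its part in the difference was not tested. The class CAGCTG stood at 2.97% of members and 3.0% of peaks near a single coding gene, and CATATG at 2.83% and 3.79%.

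In the wider window of 250 bp to either side some E-box was found at 90.5% of members and 90.9% of peaks near a single coding gene, which leaves no room for a difference, but single classes differed in both directions. CAGCTG lay there in 36.3% (32.7 to 39.9) of members, against 24.7% (22.4 to 27.0) of peaks near a single coding gene and 24.6% of all coding promoters. Replicate 1 gave 37.5% against 24.9% and replicate 2 gave 36.1% against 24.3%. CACATG lay in 12.2% of members, against 19.0% of peaks near a single coding gene, and CATATG in 10.9% against 16.4%. Windows of the same length at all coding promoters held CACATG in 15.4% and CATATG in 11.6%. For CATATG the members were thus near that background, and the peaks near a single coding gene were above it. For CACATG the background lay between the 2 classes. For CACATG replicate 1 gave 12.3% against 19.1% and replicate 2 gave 12.5% against 19.3%. For CATATG they gave 10.8% against 16.5% and 10.1% against 14.5%. The window takes in gene bodies on both sides of many members, and their part in these shares was not tested. Around the middle between the starts, CAGCTG was found within 250 bp in 35.7% of pairs with a peak and 27.2% of pairs without, while within 50 bp the shares were 4.64% and 7.55%.

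The elements of housekeeping promoters were common near members but not at the summit itself. Within 250 bp, a DRE (TATCGATA, its own reverse complement) was found in 136 members (19.3%, 16.4 to 22.4), against 5.43% (4.30 to 6.75) of peaks near a single coding gene. Replicate 1 gave 19.8% against 4.53% and replicate 2 gave 19.7% against 6.44%. The Motif 1 core (GGTCACAC or GTGTGACC) was found in 17.6% of members, against 4.50% of those peaks. Windows of the same length at all coding promoters held them in 10.7% and 9.09%. Within 250 bp of the middle between the starts, the DRE was found in 21.1% (18.2 to 24.3) of pairs with a peak and 18.0% (16.3 to 19.8) of pairs without. The Motif 1 core was found in 17.5% (14.8 to 20.4) and 15.4% (13.8 to 17.1). Both elements were thus frequent in divergent pairs whether or not a peak was called.

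Within 50 bp of the summit the DRE was found in 17 members (2.41%) and the Motif 1 core in 11 (1.56%). Peaks near a single coding gene had 1.00% and 0.786%. Windows of the same length centred 100 bp upstream of all coding genes had 2.62% and 1.39%. DRE matches numbered 21 within 50 bp of the 706 summits, 37 at 50 to 99 bp, 48 at 100 to 149 bp and 28 at 150 to 199 bp. For the Motif 1 core these counts were 14, 15, 43 and 39. Both elements thus peaked to the sides of the summit, at distances beyond the replicate shift of 27 bp. At the middle of pairs whose starts were 1 to 200 bp apart, a DRE lay within 50 bp in 8.28% (4.60 to 13.5) of pairs with a peak and 16.0% (13.2 to 19.2) of pairs without, and the Motif 1 core in 4.73% (2.07 to 9.11) and 10.05% (7.79 to 12.7).

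**Figure D4:**
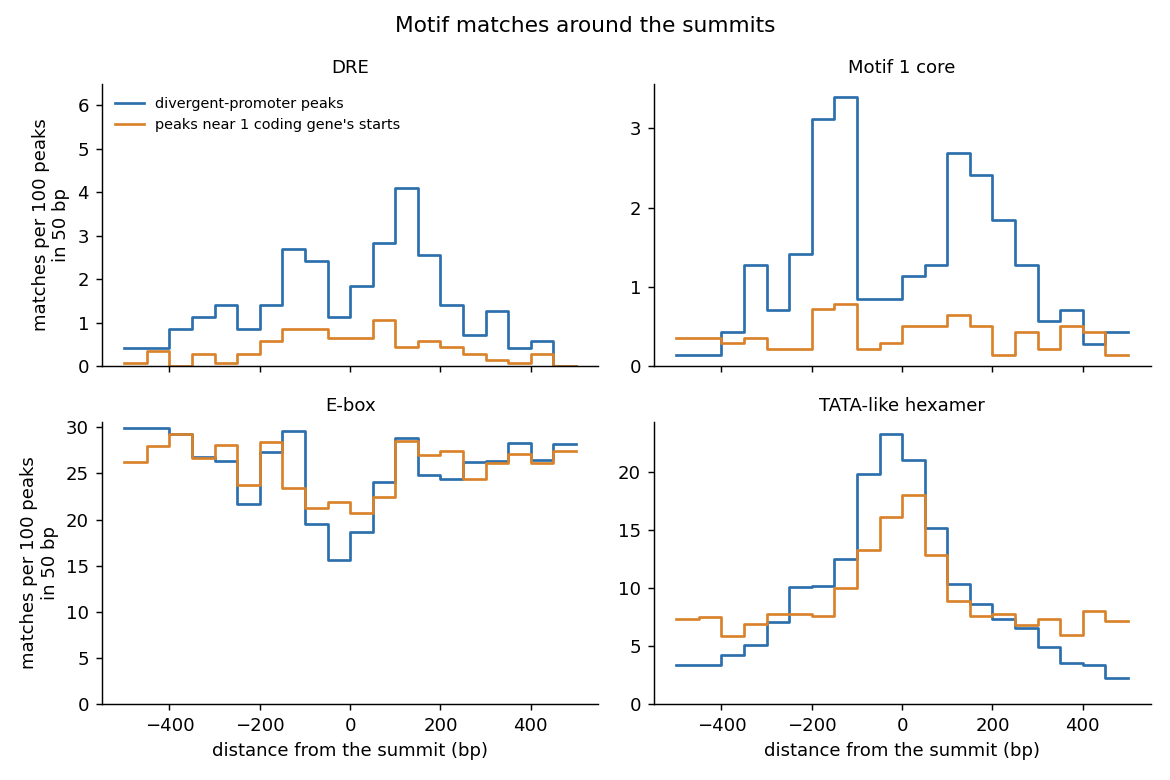
Motif matches per 100 peaks in 50 bp steps (y axis) by distance from the summit (bp, x axis) for divergent-promoter peaks and peaks near a single coding gene, on separate y scales. DRE and Motif 1 matches rise on both sides of the members' summits. E-boxes thin out and the hexamer TATAAA gathers at the summits of both classes.

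Other motifs went in both directions. The hexamer TATAAA (or TTTATA) lay within 50 bp in 31.4% of members, 25.2% of peaks near a single coding gene and 18.2% of all coding promoters. Peaks away from any start had it in 26.6%. Its letters are those of a TATA box but also of AT-rich sequence in general. GAGAG (or CTCTC), a part of GAGA factor sites, lay within 250 bp in 33.0% (29.5 to 36.6) of members, against 58.8% (56.2 to 61.4) of peaks near a single coding gene and 42.3% of coding promoters. Replicate 1 gave 32.1% against 58.2% and replicate 2 gave 34.5% against 58.0%. The Motif 6 core (GGTATTTT or AAAATACC) was within 50 bp in 1.70% of members and 0.929% of peaks near a single coding gene. Motif 7 (CAGCGCTG) was found within 50 bp in 0 of 706 members (exact upper limit 0.521%) and in 0.143% of the other class. GATAAG (or CTTATC), which GATA factors bind, stood at 5.52% and 5.0%, and CAGGTA (or TACCTG), a Zelda site, at 1.70% and 2.14%.

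Genes for cytoplasmic ribosomal proteins had a member more often than divergent genes at large. Of 86 such genes in the annotation 53 were in divergent pairs, and 33 of these (62.3%, 47.9 to 75.2) had a member, against 27.5% of all genes in such pairs. The replicates gave 35 and 31 genes. Peaks at these genes were not particular to divergent promoters, since 17 of the 33 outside such pairs (51.5%, 33.5 to 69.2) had a summit within 500 bp of a start, against 11.4% of all coding genes outside pairs. With another rule for assigning genes, the enrichment of this gene group near peaks was known from earlier results of these data, so the count is not independent of them. In 36 peaks the median signal was 379.0. Examples are RpS27 (paired with the nuclear pore gene Nup37, signal 1158.9, 569.5 in replicate 1 and 602.1 in replicate 2), RpL7 (837.3, 402.3 and 442.3) and RpL34b (828.7, 393.4 and 419.3).

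In these pairs the summit stood close to the ribosomal protein gene rather than in the middle. It was nearer to that gene than to its partner in 30 of 36 peaks, and in 30 and 32 of the 36 in replicates 1 and 2. The median distance was 62 bp to the ribosomal protein gene and 212 bp to the partner, with 60 and 230.5 bp in replicate 1 and 49.5 and 229.5 bp in replicate 2. The summit lay 5 bp upstream of RpS27 and 139 bp from Nup37, 4 bp upstream of RpS19a and 476 bp from Rok, 7 bp upstream of RpS21 and 285 bp from CG3104, and 16 bp inside RpL31 and 495 bp from CG12929. These 4 distances to the ribosomal protein gene are below the replicate shift of 27 bp, so they place the summit only at or near the start. Exceptions were RpL28, RpL10Ab, RpL34b and RpL23, with 100 bp to eIF1, 249 bp to CG5946, 122 bp to CG8132 and 210 bp to CG13531, closer in each case than the ribosomal protein gene. The second RpL23 peak lay 139 bp from that gene. RpL18 and RpS6 each had a pair of peaks, 1 nearer to each of the neighbours. Peaks of 1 pair can share their counterpart in a replicate list.

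The base composition of these peaks, a comparison chosen after its values were seen, differed from that of the other members. The 36 summits had 40.6% GC (SD 12.5), against 28.9% (SD 8.32) at the other 670. At least 45% GC was found in 18 of the 36 and in 33 of the 670 (4.93%). The window at RpS25 printed above has 49.5% GC, and that at RpL7 has 61.4%. Such summits near the start also differed in place from the typical summit of a divergent pair, and which of these features go together was not tested.

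Mitochondrial ribosomal protein genes showed another arrangement. Of 73 genes 58 were in divergent pairs and 21 of these (36.2%, 24.0 to 49.9) had a member, an interval that includes the background of 27.5%. The highest were mRpS10 (4772.9), mRpS23 (3741.2) and mRpL23 (2562.9, 1175.6 in replicate 1 and 1381.0 in replicate 2). The summit was nearer to the mitochondrial ribosomal protein gene in 6 of 21 peaks, and in 5 and 7 of 21 in replicates 1 and 2. Median distances were 169 bp to that gene and 125 bp to the partner. GC content at these summits averaged 26.7% (SD 6.82).

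**Figure D5:**
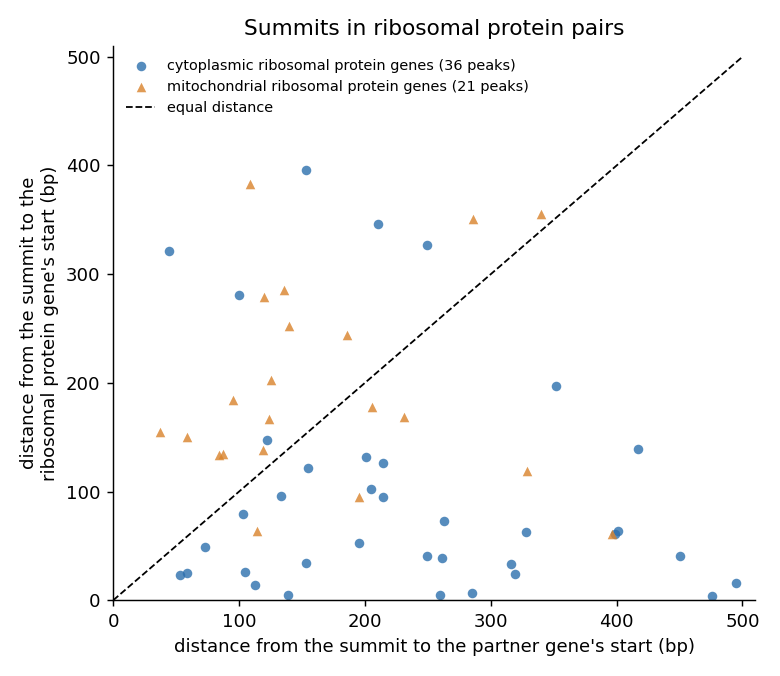
Distance from the summit to the ribosomal protein gene's start (bp, y axis) against the distance to the partner's start (bp, x axis) for the 36 peaks at cytoplasmic and the 21 at mitochondrial ribosomal protein genes. Of the circles 30 of 36 lie below the line of equal distance, as do 6 of the 21 triangles.

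In other groups of genes for general cell functions the share with a member ran from 17.4% to 50%, and every interval takes in the background of 27.5%. Genes of the respiratory chain and ATP synthase had one in 13 of 44 genes in divergent pairs (29.5%), with ND-ASHI (983.0), ND-MWFE (891.5) and ND-42 (514.8), all subunits of complex I, as the highest. General transcription and Mediator genes had one in 17 of 56 (30.4%), led by the RNA polymerase subunit genes Polr3E (1172.8) and Polr2B (1042.2) and the TFIID subunit gene Taf5 (941.1). The summit was nearer to the listed gene than to its partner in 5 of 18 peaks, and in 8 and 6 of 18 in replicates 1 and 2. Aminoacyl-tRNA synthetase genes had one in 9 of 22 (40.9%, 20.7 to 63.6), with SerRS (903.7), IleRS (833.5) and ThrRS (780.2). Genes on the cell cycle and mitosis list had one in 12 of 36 (33.3%). The highest were SMC6 (1408.8), Cdc16 of the anaphase-promoting complex (888.9) and the kinase gene Cdk12 (661.7), which is paired with SAK.

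Splicing genes had a member in 9 of 32 (28.1%), including U2af50, Sf3b6 (615.2) and Prp31 (548.4). Translation factors had one in 6 of 27 (22.2%), including eIF4EHP (2874.9), eIF3h (556.5) and the release factor gene eRF3 (488.6). Proteasome genes had one in 5 of 26 (19.2%), Rpn3 (618.2), Rpn5 (499.6) and Rpn13 (366.8) being the highest. DNA replication genes had one in 4 of 23 (17.4%), with the polymerase delta subunit gene PolD2 at 2278.4, the ribonucleotide reductase subunit gene RnrS at 1002.4 and the helicase subunit gene Mcm2 at 455.4. Mitochondrial import genes had one in 3 of 6, namely Tom7 (585.2), ttm50 (334.8) and Tim10 (275.7). These lists are too short for their shares to be told apart from the background.

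Genes for proteins that themselves bind promoters and insulators had a member in 7 of 12 (58.3%, 27.7 to 84.8). The lower end of this wide interval lies barely above the background of 27.5%. The summit was nearer to the listed gene than to its partner in 2 of 7 peaks, and in 2 of 7 in each replicate. The peak at Chro, given above, was the highest. Cp190, which encodes an insulator protein with zinc fingers, had 1081.8 in replicate 1, 1000.8 in replicate 2 and 2078.7 in the pooled data. M1BP, the gene of the Motif 1 binding protein, had 669.1, 317.0 and 995.7. Dref, the gene of the DRE-binding factor, starts 84 bp from RpL13, and the peak between them had 146.9, 210.4 and 366.2. Its summit lay 25 bp from RpL13 and 59 bp from Dref.

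Of 4 lists of developmental and tissue-specific genes, each had a smaller part of its genes in divergent pairs than the 36.2% of all coding genes. Of 47 Hox and neural homeobox genes 1 was in a divergent pair, and it had no member. Of 31 neural and mesodermal bHLH genes 4 were in divergent pairs and 1 had a member, E(spl)mdelta-HLH, a target gene of Notch signalling, whose peak had 426.2 in replicate 1, 387.3 in replicate 2 and 815.8 in the pooled data and lay nearer to its partner CG43116 (280 bp against 345 bp). Receptor genes of smell and taste had members in 0 of 26 genes in divergent pairs (of 179 in all), which allows a share of up to 13.2% by the exact interval, against the background of 27.5%. Cuticle protein genes had members in 0 of 13 (of 123 in all), which allows up to 24.7%. Outside pairs, too, a summit near a start was found at 0 of 153 of these receptor genes and 1 of 110 cuticle protein genes, against 11.4% of all coding genes outside pairs.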

How the data were processed

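The authors deposited 4 peak lists on dm6, per the accompanying file notes: 1 for each of the 2 replicates (30000 peaks each), 1 for the pooled replicates (30000) and 1 thresholded on their agreement by the irreproducible discovery rate, IDR (6496). All were made with the same control. The signal deposited with each peak is the peak caller's value and was used only to rank, describe and filter within a list. Which aligner and peak caller were used is not given in the sources used here. Depth is unknown, since the lists hold no read counts.

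Transcript starts were read from the Ensembl annotation (release 115, BDGP6 54), and bases from RefSeq's release 6 of the genome. No sequence from 2R was considered for printing. Of the starts within 500 bp of a summit, the pair with the smallest summed distance was used, while a gene pair's own distance is the smallest between any of its starts. Replicate lists were reduced to their strongest 6496 peaks by signal. Intervals are exact binomial (Clopper-Pearson) 95% intervals and cover counting error over peaks, genes or pairs only. Motifs were searched on both strands, and GC content was taken in 101 bp.

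Named genes are the pairs of the 15 highest members, up to 3 genes of each of 16 lists with the highest signal, the 3 closest and 3 most distant pairs, and the 3 pairs with 2 peaks and the highest summed signal. Ribosomal protein genes beyond these, Dref, and Mpc1/CG42613 were added once their values had been seen. The members and lists were chosen with earlier results of these data known. The tools were Python 3.11.15, pandas 2.3.3, numpy 2.4.6, scipy 1.17.1 and, for figures, matplotlib 3.10.9. The membership rule, pair search and motif search were tested on simulated data and recovered what was planted. Alternatives changed the distance, the starts used, the list, the overlap and the motif window. Signal tracks and alignments were not analysed here.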

Additional observations from a re-analysis of the deposited data

How the results depend on the processing

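The results are counts, shares and medians with no sign, so a direction was not compared in the 69 alternatives computed. A count was taken as unchanged within 1.5 times, the share in both replicate lists within its own 95% interval and the other values within 1 SD of the replicates, which is small with 2 replicates; by these limits 31 values stayed and 38 moved. The comparison of ranks does depend on the list: members stood at 42.1% and peaks near a single coding gene at 41.1% in replicate 1, the opposite order to the pooled list (39.7% and 40.5%). The number of members rose to 881 with starts within 1000 bp and to 1001 in 12992 pooled peaks. In this paragraph, ribosomal protein genes are the cytoplasmic ones that are in divergent pairs. With starts counted within 250 bp there were 424 members, 23.5% of pairs had a peak, the median rank was at 33.3% of the list, GC was 27.8%, DREs stood at 1.42% and 50% of ribosomal protein genes had a member. Within 1000 bp, 25.7% of pairs had a peak, the rank was 42.1%, 82.3% of summits lay between the starts, GC was 30.3%, E-boxes stood at 28.1% and 80.7% of ribosomal protein genes had a member. With outermost starts only, the rank was 41.0%, 80.8% of summits lay between the starts and E-boxes stood at 26.1%. In the stronger 3248 peaks there were 414 members, at 16.7% of pairs, with a rank of 47.3%, GC of 28.2%, DREs at 1.21% and 45.3% of ribosomal protein genes. In 12992 pooled peaks 36.6% of pairs had a peak, with a rank of 32.1%, 80.9% of summits between the starts, 97.0% of members in both replicates, GC of 31.7%, E-boxes at 29.1%, DREs at 3.40% and 73.6% of ribosomal protein genes. With 1 peak per promoter the rank was 38.2%. Within 100 bp of the summit E-boxes stood at 51.8% and DREs at 7.79%, as a wider window must hold more. A reciprocal overlap of 50% left 86.0% of members in both replicates. Leaving out either replicate gave ranks of 40.2% to 42.1%, GC of 29.8% to 30.3%, E-boxes at 28.6% to 29.1% and DREs at 2.44% to 3.14%; for the other changes with the list or the distance the cause was not tested. The alternative without the mod(mdg4) genes was chosen after seeing the data.

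No paired analysis was possible because the samples form 1 group. The 2 replicate lists share a control, and without depths there is no detection limit. A pair without a peak had none above the threshold, which does not show that Oli is absent. Annotated starts need not be those used in the embryo, and whole embryos mix cells with and without the tagged protein.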

Other observations

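Divergent promoters became rarer down the pooled list. They held 10.9% of the IDR peaks, 2.41% (566 of 23504) of the pooled peaks below that threshold and 1.06% (53, interval 0.795 to 1.38) of the weakest 5000. In all, 1272 of 30000 pooled peaks met the same rule, and 1155 of 2667 pairs (43.3%) had at least 1 of them. Of these pairs, 422 had a weaker peak only.

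Outside the ribosomal protein group, 33 members had at least 45% GC at the summit, and 16 of these (48.5%, 30.8 to 66.5) lay within 50 bp of the nearer start, against 90 of the other 637 (14.1%, 11.5 to 17.1). Their median distances to that start were 52 and 111 bp. The threshold and these 2 examples were chosen after values were seen. The summit between Rack1, which encodes a ribosome-associated scaffold protein, and the phosphatase gene mts had 52.5% GC (signal 455.4). It lay 19 bp from the start of Rack1, a distance below the replicate shift of 27 bp. The summit between CG11779 and nanos, a regulator of translation in the germ line, lay 70 bp upstream of CG11779 and had 54.5% GC (signal 176.9).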
